A study of Solanum lycopersicum with 12 samples.

Results

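The data compared here are the responses of tomato leaves to larvae of the leafminer *Tuta absoluta* at 2 times, as the response after 24 h minus the response after 5 h. A response is the difference between infested and control leaves of the same harvest, and all 12 libraries of the series enter the comparison, with 3 libraries in each of the 4 groups. Its members are the 18200 of 34075 counted genes that had more than 1 CPM (counts per 1000000 counts of a library, its total scaled by a TMM factor) in at least 3 libraries. Plants of the cultivar Better Bush carried 6 larvae on the terminal leaflets of 1 true leaf (infested 5 h and infested 24 h) or received a mock deposition (control 5 h and control 24 h), and larvae were removed before the leaflets were frozen. The sample labels name true leaf 3 and the methods of the study true leaf 4. The sources used here name 6 plants per treatment but do not say which library came from which plant, so that p-values measure the spread between these libraries, which may be technical. The question is which functions of the leaf response fade, persist or grow between the harvests.

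A chewing larva breaks leaf cells, and in tomato the wound sets off jasmonate, a lipid-derived hormone that switches on inhibitors of insect digestion and the synthesis of defence metabolites. Among these metabolites, terpenoids and sterols are built from mevalonate, and phenolamides join a phenylpropanoid acid, made from phenylalanine, to an amine. Leaves under attack are also known to lower the transcripts of photosynthesis. Leaf transcripts further follow the day, and the genes of the light-harvesting antenna are a textbook case of such daily cycles.

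Library totals ranged from 19655669 to 28209033 counts, so that 3 counts amounted to 0.0960 to 0.167 CPM. Replicates varied most in the infested 24 h group, with a median SD of 0.278 on the log2 scale against 0.190 to 0.233 in the others. The 26 light harvesting genes, which mark leaf tissue, summed to 85346 to 101960 CPM in control 5 h, 71017 to 96849 CPM in infested 5 h, 17724 to 25755 CPM in control 24 h and 6560 to 11209 CPM in infested 24 h. The control leaves thus changed between harvests as well, and 5037 genes (27.7%) were called for that change alone, against 6314 (34.7%) for the change in infested leaves. Hours of feeding, time of day and harvest cannot be told apart, and the headers of the tables name a different mapping input for the libraries of each time. In whole leaflets, fewer cells of a type and less RNA per cell cannot be told apart.

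The response differed between the times for 393 of the 18200 genes (2.16%) by edgeR's quasi-likelihood test at an adjusted p below 0.05. The difference was negative for 268 genes (1.47%) and positive for 125 (0.687%). Genes were sorted by the time at which the response was larger and by its sign there. This sorting gave 80 genes of fading induction (0.44%), 68 of fading repression (0.374%), 57 of growing induction (0.313%) and 188 of growing repression (1.03%). A class name does not give the sign of the response at the other time. Of the 57 growing inductions, 48 had a response of opposite sign at 5 h. The split between positive and negative differences depended on the scaling. With library totals in place of TMM factors, 166 genes (54.1%) had a positive and 141 a negative difference, against 31.8% positive with TMM, and the median difference over all genes tested moved from 0.02 to 0.20. All 393 genes kept the sign of their difference under that scaling. The smallest absolute difference among them was 0.60, so a shift of this size could hardly turn a sign, and the kept signs are no support.

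These calls lay close to the threshold, since 364 of the 393 genes had an adjusted p of at least 0.02. Leaving out 1 library changed the number called to between 13 (without control 5 h replicate 2) and 831 (without infested 24 h replicate 3). Among the 5 h controls, it was 127 when replicate 1 was left out and 15 for replicate 3. For the infested leaves of 5 h, it was 79, 18 and 29 when replicates 1, 2 and 3 were left out in turn. Leaving out replicate 1 or 3 of control 24 h gave 32 and 44. In each of these fits, every gene of the 393 that was still tested, 392 or 393, kept its sign and had an unadjusted p below 0.05. Each fit shares all but 1 library with the fit that chose these genes. That outcome was thus largely set in advance and is no support. Of the 43 genes with a called difference that are named below, 38 and 37 lost their call without control 5 h replicates 2 and 3, 36 and 34 without infested 5 h replicates 2 and 3, and 0 to 30 without each of the others. Only 12 genes were called in all 12 fits with 1 library left out, and they comprised 6 fading inductions, 3 fading repressions, 2 growing inductions and 1 growing repression.

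**Figure D1:**
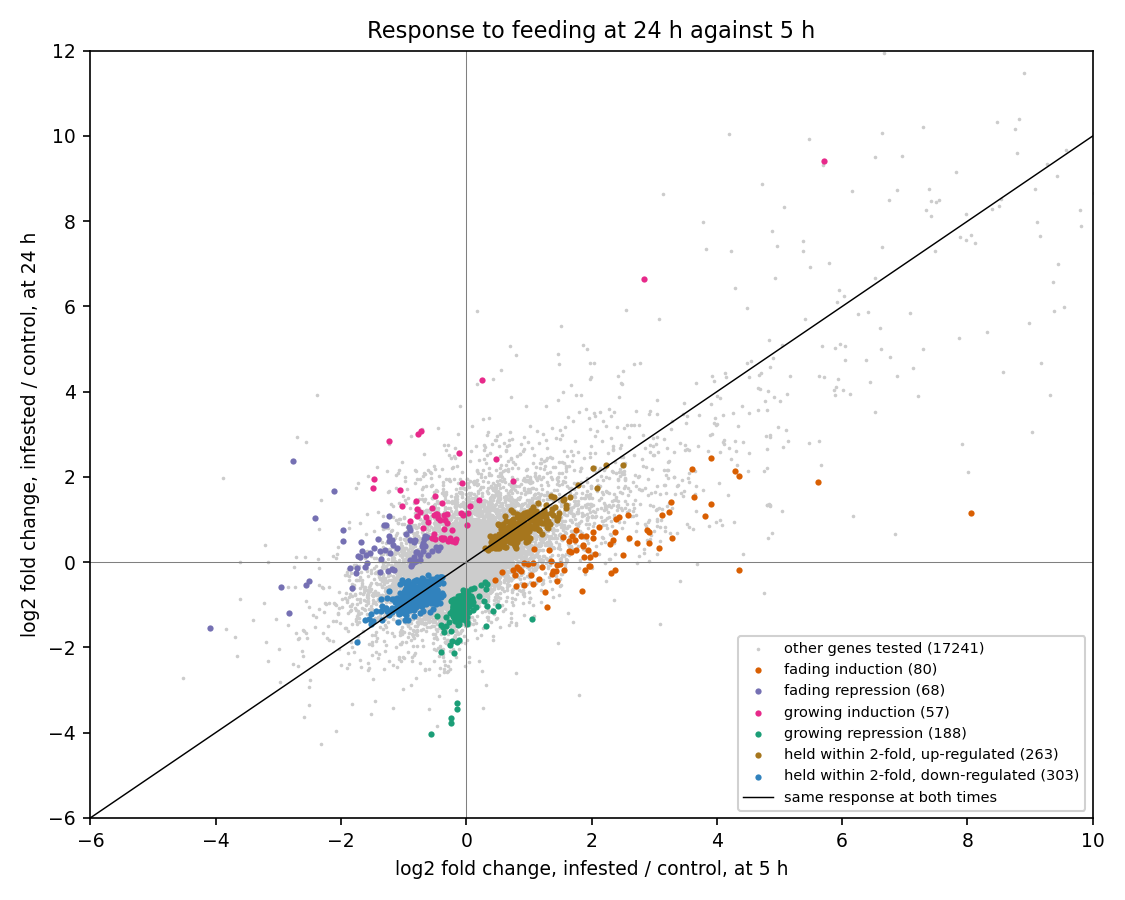
Each point is 1 of the 18200 genes tested, with its log2 fold change (infested against control) at 5 h on the horizontal axis and at 24 h on the vertical axis; the line marks equal responses and 11 genes lie outside the axes. The 188 genes of growing repression sit near 0 at 5 h and below 0 at 24 h, and the 80 genes of fading induction lie right of 0 and below the line.

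Most responses could be placed in neither group. Of the 1263 genes up-regulated at 5 h (6.94% of the genes tested), 80 had a difference that was called as lower at 24 h and 263 (20.8%) were held within 2-fold. Held means called at both times in the same direction, not called for the difference, and with the 95% interval of the difference inside 1 on either side of 0 on the log2 scale. The induction of 3 grew, and for the other 917 (72.6%) the data allowed neither statement. Of the 1017 genes down-regulated at 5 h (5.59%), 303 (29.8%) were held and 646 (63.5%) remained undecided. The 95% interval of the difference reached a median of 0.676 to either side over all genes tested. Genes called at 1 time only can therefore not be read as specific to that time.

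Among the inductions that shrank were 4 of mevalonate and sterol synthesis, of which 3 were still called up-regulated at 24 h. The study names 8 enzymes of this route, and all were induced at 5 h. Their median log2FC dropped from 2.03 then to 0.56 at 24 h, when 5 were still called. The difference was called as lower at 24 h for 4 of the 8 and was below 0 for all 8, with a median of -1.34 against 0.02 over all genes tested. The study chose these genes for their induction at 5 h in these libraries, so the direction of the difference is not independent evidence. With 1 library left out, 1 to 5 of the 8 were called and the median lay between -1.46 and -1.15.

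Hydroxymethylglutaryl-CoA synthase (*Solyc08g080170*) makes the compound that the next enzyme reduces to mevalonate. In replicates 1, 2 and 3, it stood at 53.2, 55.7 and 56.1 CPM in control 5 h and at 403, 304 and 290 CPM in infested 5 h. In control 24 h it was at 23.8, 19.2 and 21.8 CPM and in infested 24 h at 24.3, 37.3 and 34.5 CPM. Infested and control leaves did not overlap at either time, but the gap at 5 h was far wider. Its log2FC was 2.59 (standard error 0.18) at 5 h and 0.57 (standard error 0.17) at 24 h, a difference of -2.03 (95% interval -2.55 to -1.51, edgeR adjusted p = 0.00803), which was called in each of the 12 fits with 1 library left out. Controls fell between the harvests by 1.35 on the log2 scale and infested leaves fell by 3.37.

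One sterol reductase gene, *Solyc06g074090*, was at 26.6, 24.4 and 12.4 CPM in control 5 h and at 257, 185 and 178 CPM in infested 5 h. At 24 h the control leaves held 9.40, 15.6 and 17.1 CPM and the infested leaves 11.9, 23.9 and 26.0 CPM, so that the groups overlapped. The difference was -2.73 (standard error 0.48, edgeR adjusted p = 0.0251). A further sterol reductase gene, *Solyc09g009040*, went from a log2FC of 2.58 to 1.11, a difference of -1.46 (edgeR adjusted p = 0.0343), and its infested and control leaves were apart at both times. Farnesyl pyrophosphate synthase (*Solyc12g015860*), which builds the precursor shared by sterols and sesquiterpenes, went from 1.73 to 0.51, a difference of -1.22 (edgeR adjusted p = 0.0343). Isopentenyl diphosphate isomerase (*Solyc05g055760*), which interconverts the C5 units, was the only enzyme of the 8 whose induction was held, at log2FC of 1.45 and 1.04 with an interval of the difference from -0.91 to 0.08. For mevalonate kinase, 3-hydroxy-3-methylglutaryl-CoA reductase and squalene monooxygenase, the differences of -0.75, -1.74 and -1.02 were not called (edgeR adjusted p = 0.340, 0.0724 and 0.0638).

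The wider category of steroid metabolism, taken from the genes that the study lists as up-regulated at 5 h, had 9 genes, of which 5 were called as fading and 1 as held. The sterol reductase genes *Solyc06g074090* and *Solyc09g009040*, already counted above, are among those 5. The median log2FC of the category went from 2.50 to 0.56. *Solyc06g082980* of this category was at 22.2, 24.5 and 20.6 CPM in control 5 h and 198, 232 and 219 CPM in infested 5 h. At 24 h it was at 28.6, 32.8 and 36.0 CPM in control leaves and 71.0, 92.0 and 94.7 CPM in infested leaves. Here the induction remained called at 24 h (log2FC 1.40) but was smaller than at 5 h (3.27), with a difference of -1.86 (95% interval -2.28 to -1.45, edgeR adjusted p = 0.00474) that was called in all 12 fits with 1 library left out. *Solyc02g081730* and *Solyc10g080150* lost their induction, going from log2FC of 2.50 to 0.16 and of 1.89 to -0.17. With 1 library left out, 1 to 7 genes of the category were called. Isoprenoid biosynthesis, listed in the same way, had 2 of 11 genes called as fading and 4 held. Those 2, *Solyc08g080170* and *Solyc12g015860*, were also counted above, so these lists share genes and are not independent of each other.

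Of the 24 genes used here from the lipid metabolism category that was up-regulated at 5 h, 22 were called at 5 h and 13 at 24 h. Below 0 were 22 of the 24 differences, a sign that the study's choice of these genes by their induction at 5 h largely sets. Only 2 were called for the difference, *Solyc02g081730* and *Solyc01g091320*. The latter was at 44.6, 45.4 and 41.7 CPM in control 5 h, at 192, 206 and 151 CPM in infested 5 h, at 33.6, 40.2 and 51.5 CPM in control 24 h and at 33.9, 47.9 and 60.4 CPM in infested 24 h. Its induction at 5 h was thus not seen at 24 h, where the groups overlapped (difference -1.87, edgeR adjusted p = 0.0188).

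Lipases release fatty acids from lipids, and the study names 4 as examples from a longer set of lipase-annotated genes up-regulated at 5 h. Of these 4, none was called for the difference, 1 had an unadjusted p below 0.05 and DESeq2 called 1. *Solyc01g079600*, *Solyc02g077420* and *Solyc11g065530* had differences of -1.79, -1.38 and -0.21. The lipase gene *Solyc08g006850* was at 0 in every control library, at 0, 0.762 and 0.781 CPM in infested 5 h and at 32.3, 3.33 and 22.1 CPM in infested 24 h, and no fold is given. Of the acyltransferases named for lipid modification, *Solyc07g053890* and *Solyc09g072710* had differences of -1.45 and -0.78, neither of them called (edgeR adjusted p = 0.273 and 0.290). *Solyc01g095960*, a diacylglycerol acyltransferase gene, was at 7.47, 27.0 and 11.2 CPM in infested 5 h and at 25.5, 0.256 and 16.2 CPM in infested 24 h, with control libraries between 0 and 0.0817 CPM.

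The phenylpropanoid pathway supplies the acid part of phenolamides, lignin precursors and flavonoids. The study followed 58 of its genes by pathway and not by response, and 39 passed the filter. Feeding had induced 14 and repressed 1 by 5 h, when 6.94% of all genes tested were up-regulated and 5.59% down-regulated. By 24 h it had induced 17 and repressed 2, against 11.8% and 12.5% of all genes tested. For the difference, 3 genes were called as lower and 1 as higher at 24 h (10.3%, against 2.16% of all genes tested). Another 3 were held, all of them up-regulated. The median difference was -0.33, with 25 of 39 genes below 0, and it lay between -0.51 and -0.24 with 1 library left out. The 3 that faded act at the entry, in the middle and at the methylation step.

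Phenylalanine ammonia lyase (PAL) opens the pathway by turning phenylalanine into cinnamic acid. The PAL gene *Solyc10g086180* was at 103, 71.1 and 74.9 CPM in control 5 h and at 807, 1386 and 1291 CPM in infested 5 h. Control leaves of 24 h were at 290, 267 and 395 CPM and infested leaves of 24 h at 742, 334 and 942 CPM. The log2FC went from 3.81 to 1.09, a difference of -2.72 (standard error 0.47, edgeR adjusted p = 0.0240). Much of this difference lay in the control leaves, which rose by 1.94 on the log2 scale between harvests (edgeR adjusted p = 0.00112), while the infested leaves were at -0.79 (edgeR adjusted p = 0.0810). Infested 24 h replicate 2 lay within the range of the 24 h controls.

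Of the other PAL genes, *Solyc09g007890*, *Solyc09g007900* and *Solyc09g007920* were held within 2-fold, with differences of -0.29, -0.35 and -0.50. In *Solyc09g007920*, control leaves were at 215, 208 and 216 CPM at 5 h and 457, 469 and 451 CPM at 24 h. Infested leaves were at 440, 608 and 525 CPM at 5 h and 1002, 736 and 651 CPM at 24 h, so that the level was higher at 24 h in both treatments. The log2FC of 1.30 and 0.80 differed by -0.50, with a 95% interval from -0.99 to -0.02 that lies below 0 but inside the limit of 2-fold (unadjusted, and not called at an edgeR adjusted p of 0.275). These genes are neighbours by identifier, so reads may be shared among them. The sources used here do not give how reads matching several genes were counted. SlPAL5 (*Solyc09g007910*) had a difference of -1.55 that was not called (edgeR adjusted p = 0.0733). Of the 7 PAL genes that passed the filter, all had a difference below 0.

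The branch from cinnamic acid to caffeoyl-CoA, as grouped here, also holds the pair of putrescine transferases described below. It had a median difference of -1.57 over 8 genes, with 7 below 0 and 1 called. The called gene was the hydroxylase C3'H (*Solyc01g096670*), which adds the second ring hydroxyl to coumaroyl esters. Its levels were 14.2, 12.3 and 12.7 CPM in control 5 h, 127, 286 and 175 CPM in infested 5 h, 21.1, 14.4 and 30.8 CPM in control 24 h and 77.7, 25.9 and 66.3 CPM in infested 24 h. The groups were apart at 5 h and overlapped at 24 h through infested replicate 2 (difference -2.55, edgeR adjusted p = 0.0403). Caffeoyl-CoA O-methyltransferase (*Solyc04g063210*) makes feruloyl-CoA and is not among these 8 genes. It remained strongly induced at 24 h, at 50.2, 38.3 and 60.1 CPM against 8.62, 8.54 and 10.3 CPM in control leaves. At 5 h it was at 61.4, 102 and 72.6 CPM against 5.15, 6.08 and 4.41 CPM, and the difference was -1.48 (edgeR adjusted p = 0.0343). The hydroxycinnamoyl transferase HCT (*Solyc03g117600*) and both 4-coumarate ligases *Solyc03g117870* and *Solyc06g068650* had differences of -1.51, -1.62 and -1.09 that were not called (edgeR adjusted p = 0.150, 0.0838 and 0.223).

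The same branch holds a pair of neighbouring genes that the study assigns to putrescine hydroxycinnamoyl transferases, which join the acid to putrescine. *Solyc11g071480* was at 0 in all 3 control 5 h libraries and at 13.7, 63.7 and 61.8 CPM in infested 5 h. In control 24 h it was at 0, 0.466 and 0 CPM and in infested 24 h at 61.6, 0.640 and 46.0 CPM. Infested leaves were above controls at both times, but replicate 2 of infested 24 h was close to them. With a group at 0 no fold is given, and the 95% interval of the difference, -18.08 to 7.27, allowed no statement. *Solyc11g071470* was at 0.396, 0.0817 and 0.163 CPM in control 5 h, at 7.81, 21.8 and 13.1 CPM in infested 5 h, at 0.495, 0.388 and 0.803 CPM in control 24 h and at 10.8, 3.10 and 13.7 CPM in infested 24 h. The groups of this gene were apart at both times, and its difference of -1.98 was not called (edgeR adjusted p = 0.307). Without *Solyc11g071480*, the median difference of the branch was -1.51.

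The amine part of phenolamides comes from polyamines and tyramine. Of 17 polyamine and monoamine genes followed by the study, 11 passed the filter, and none was called for the difference or held. With 2.16% of all genes tested called for the difference, so short a list could well hold none. At an unadjusted p below 0.05 there were 2, arginase 1 (*Solyc01g091160*, 95% interval 0.45 to 2.92) and spermine synthase (*Solyc03g007240*, 95% interval -3.03 to -0.61), in opposite directions. The median difference was -0.02, and 5 genes were up-regulated at 5 h and 6 at 24 h, against 6.94% and 11.8% of all genes tested. Arginase 2 (*Solyc01g091170*), which releases ornithine from arginine, had log2FC of 8.51 and 8.35, and ornithine decarboxylase (*Solyc04g082030*), which makes putrescine, of 3.21 and 2.68. Their intervals of the difference, -1.72 to 1.40 and -2.32 to 1.26, were too wide for a statement that they were held. DESeq2 called 1 of the 11 as higher at 24 h.

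The tyramine hydroxycinnamoyl transferases (THT), which couple the acid to tyramine, had 1 gene called for the difference. All 5 of the 6 THT genes that passed the filter had a difference above 0, with a median of 1.6. The called gene, *Solyc08g068700*, was at 70.0, 71.7 and 100.3 CPM in control 5 h and at 27.9, 38.6 and 32.8 CPM in infested 5 h, a repression with log2FC of -1.29. At 24 h it was at 35.9, 25.5 and 23.2 CPM in control leaves and at 84.6, 36.0 and 33.2 CPM in infested leaves, where the groups overlapped and the log2FC of 0.86 was not called (edgeR adjusted p = 0.0679). The difference was 2.15 (95% interval 1.17 to 3.13, edgeR adjusted p = 0.0364). Control leaves fell by 1.52 on the log2 scale between the harvests. The family is a run of neighbours by identifier, so reads may be shared among its members, and its median difference was 0.56 to 2.12 with 1 library left out.

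**Figure D2:**
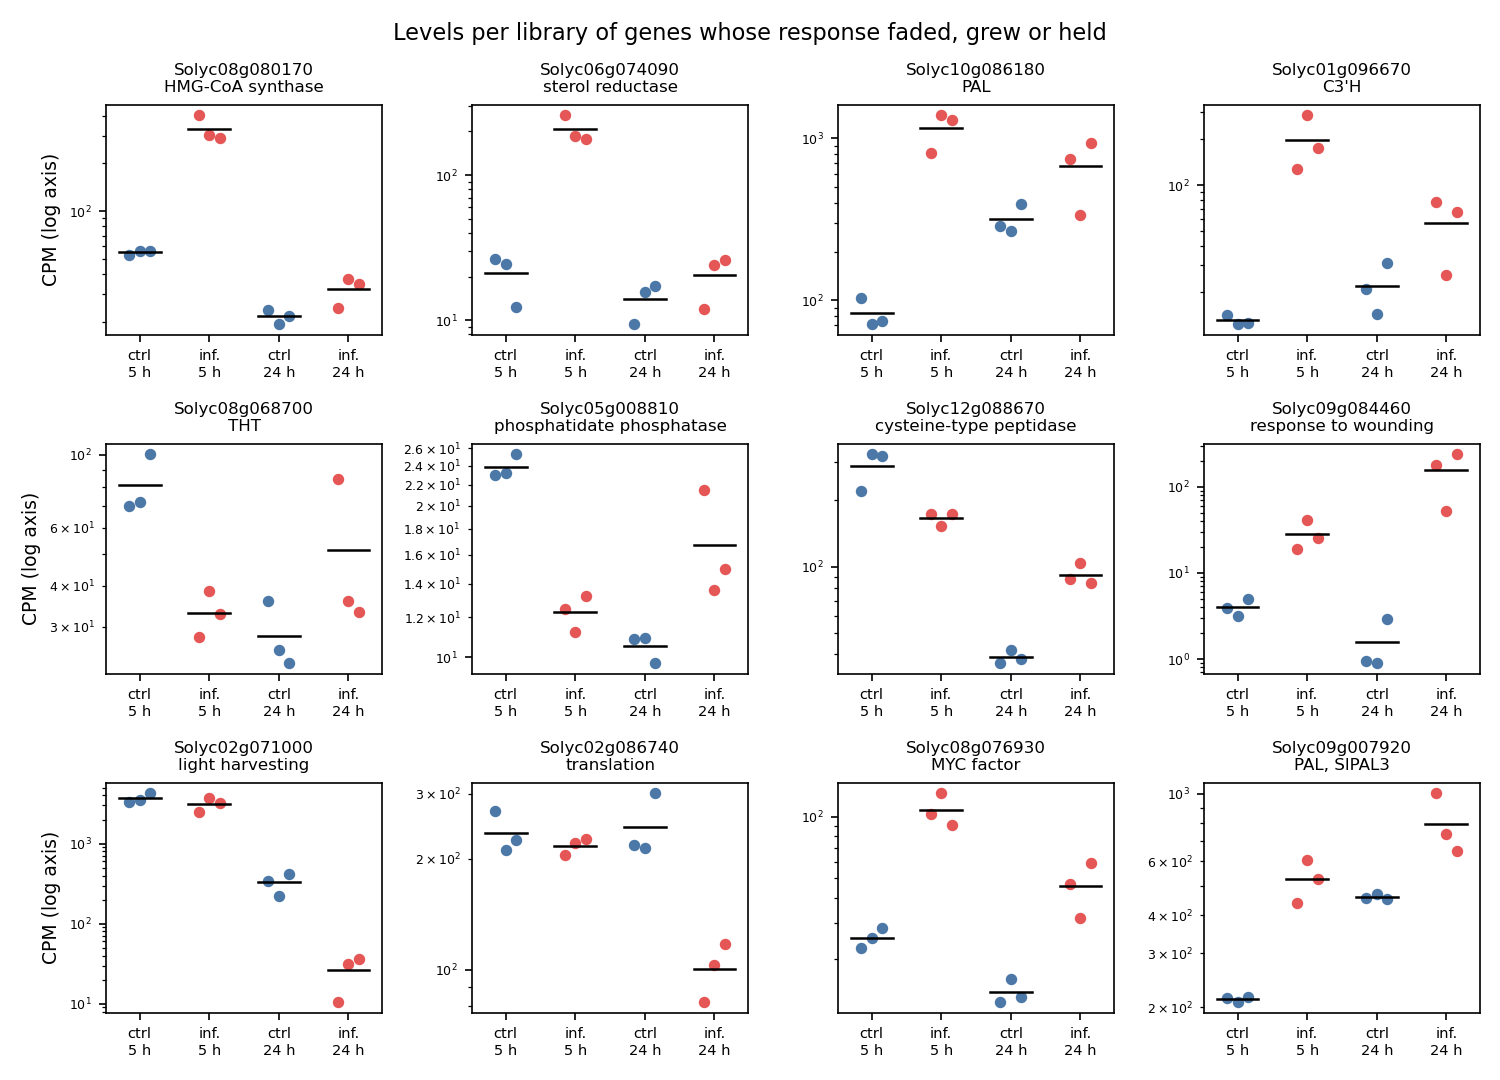
Levels in CPM (log axis, a scale of its own for each gene) of 12 genes in control (blue) and infested (red) leaves at 5 h and 24 h, with 1 point per library in the order of replicates and a bar at the group mean (n = 3). In the panels of hydroxymethylglutaryl-CoA synthase and sterol reductase the infested points stand far above the controls at 5 h and close to them at 24 h, while in those of light harvesting and translation they fall below only at 24 h.

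Repression that faded often ended near or above the control level. Of its 68 genes, 61 were called down-regulated at 5 h, and 50 had a log2FC of opposite sign at 24 h. The largest repression at 5 h among those annotated by the study was that of *Solyc03g006880*, an oxidoreductase. It was at 53.7, 41.7 and 48.8 CPM in control 5 h and at 3.46, 1.80 and 3.18 CPM in infested 5 h. At 24 h it was at 21.5, 21.2 and 27.9 CPM in control leaves and at 5.03, 12.4 and 6.73 CPM in infested leaves, still below the controls (log2FC -4.10 and -1.54, difference 2.55, edgeR adjusted p = 0.0240). A membrane oxidoreductase, *Solyc01g102610*, went from 83.3, 106 and 127 CPM in controls against 17, 10.9 and 13.1 CPM in infested leaves at 5 h to 420, 378 and 373 CPM against 195, 273 and 314 CPM at 24 h. Its repression shrank from -2.95 to -0.58 while both treatments rose, and the difference of 2.37 (edgeR adjusted p = 0.00836) was called in all 12 fits with 1 library left out.

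A pair of further genes of the class was chosen after their values were seen. The ammonium transporter *Solyc03g045070* was at 27.1, 40.1 and 39.5 CPM in control 5 h, at 7.14, 4.45 and 6.47 CPM in infested 5 h, at 62.6, 48.1 and 45.4 CPM in control 24 h and at 28.2, 43.1 and 36.4 CPM in infested 24 h. Its log2FC went from -2.56 to -0.54 (difference 2.03, edgeR adjusted p = 0.0188). A gene annotated with nitrate reductase activity, *Solyc11g013810*, went from -0.62 to 0.18 (difference 0.79, edgeR adjusted p = 0.0471), and its difference was called in 2 of the 12 fits with 1 library left out. A transcription factor gene, *Solyc02g093150*, was at 18.5 ± 1.48 CPM (SD, n = 3) in control 5 h and 4.69 ± 1.35 CPM (SD, n = 3) in infested 5 h, and at 6.75 ± 2.13 CPM (SD, n = 3) and 11.4 ± 3.82 CPM (SD, n = 3) at 24 h. The groups of this factor overlapped at 24 h, and its difference was 2.72 (edgeR adjusted p = 0.0170). In *Solyc11g006030*, annotated as a ubiquitin transferase, the difference was 5.13 (edgeR adjusted p = 0.0416), but its repression at 5 h was not called. The log2FC at 5 h was -2.77 (edgeR adjusted p = 0.0622), from 0.223 to 0.321 CPM in infested and 1.7 to 2.3 CPM in control leaves. At 24 h, infested replicate 1 held 27.8 CPM and the others 3.91 and 4.10 CPM, against 1.07 to 4.35 CPM in the 24 h controls.

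The lipid metabolism genes that the study lists as down-regulated at 5 h included 3 of 24 that were called as less repressed at 24 h, and 7 that were held. The phosphatidate phosphatase *Solyc05g008810*, which removes the phosphate of phosphatidic acid, crossed over. It was at 23.1, 23.2 and 25.3 CPM in control 5 h, at 12.5, 11.2 and 13.2 CPM in infested 5 h, at 10.9, 10.9 and 9.73 CPM in control 24 h and at 21.5, 13.6 and 15 CPM in infested 24 h. Infested leaves were lower at 5 h (log2FC -0.95) and higher at 24 h (0.66) with no overlap at either time, and the difference was 1.62 (edgeR adjusted p = 0.0157). *Solyc05g008580*, annotated for phosphatidylserine synthesis, had a difference of 1.52 (edgeR adjusted p = 0.0293), and *Solyc05g052760*, a phosphoinositide phospholipase C, of 0.81 (edgeR adjusted p = 0.0416). Of the 6 genes of phosphatidic acid metabolism that the study names, none was called for the difference. All 6 differences were above 0, with a median of 0.67. The study named these genes as down-regulated at 5 h in these libraries, which largely sets that sign. At an unadjusted p below 0.05 there were 3, and DESeq2 called 2. A phosphatidylinositol-4-phosphate 5-kinase, *Solyc11g013180*, was held down-regulated, with log2FC of -0.69 and -0.55. For the 5 named 3-ketoacyl-CoA synthases, which lengthen the fatty acids of waxes, no difference was called, the range was -0.26 to 1.02, and 1 had an unadjusted p below 0.05.

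Growing induction differed from the other classes in where the change took place. At 5 h, 6 of its 57 genes were called down-regulated and 3 up-regulated. Over its 57 genes, the median change from 5 h to 24 h was -1.44 on the log2 scale in control leaves and -0.03 in infested leaves. The control change was the larger one in 39 of the 57, and 41 were called as falling in controls. In fading induction, by contrast, the infested leaves moved by a median of -1.43 and the controls by 0.06, and in growing repression by -0.96 and 0.01. Fading repression stood between these, with medians of 0.72 in infested and -0.52 in control leaves. In infested leaves the genes went both ways, 20 called as rising and 16 as falling, so that their median near 0 is no common course. These medians describe the genes chosen by the difference and carry no test.

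**Figure D3:**
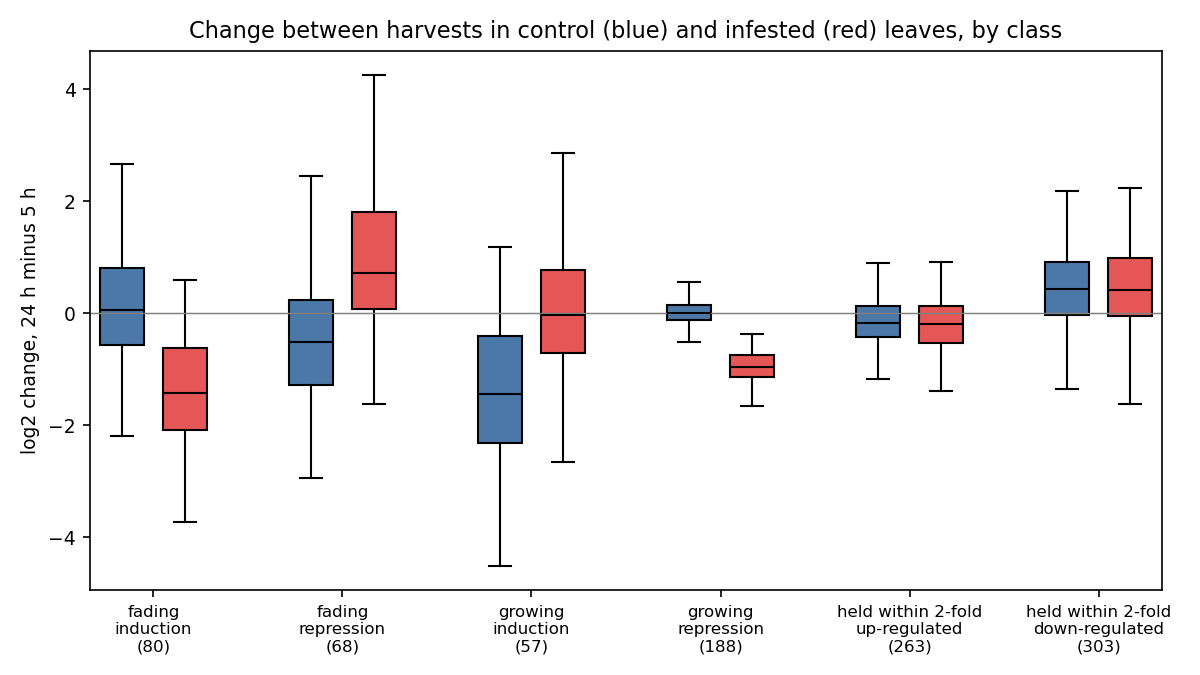
Change in level from 5 h to 24 h (log2) in control (blue) and infested (red) leaves for the genes of each class, with their number in brackets. Boxes span the quartiles with a line at the median, whiskers reach to 1.5 times the box, and points beyond are not drawn; growing induction has its control median at -1.44 and its infested median at -0.03.

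One gene of this class was *Solyc12g088670*, annotated as a cysteine-type peptidase. It was at 220, 324 and 320 CPM in control 5 h and at 174, 154 and 173 CPM in infested 5 h. At 24 h it was at 36.4, 41.9 and 38.2 CPM in control leaves and at 87.7, 104 and 83.9 CPM in infested leaves. Infested leaves were lower than controls at 5 h and higher at 24 h, without overlap, although both treatments had fallen. Its difference of 2.03 (95% interval 1.57 to 2.49, edgeR adjusted p = 0.00474) was called in all 12 fits with 1 library left out.

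It is 1 of 12 genes called in opposite directions at the times, 9 of them repressed first and induced later. A serine endopeptidase gene, *Solyc08g079840*, had log2FC of -0.89 and 0.97, and the glycosyl hydrolase gene *Solyc03g119080* of -0.69 and 0.80. The carbohydrate symporter gene *Solyc01g073660* went from -0.92 to 0.83. In *Solyc05g052030*, a transcription factor gene with log2FC of -1.48 and 1.75, control leaves fell from 22.9 to 40.2 CPM at 5 h to 0.141 to 0.536 CPM at 24 h, where infested replicates held 1.80, 0.704 and 0.504 CPM and overlapped with them. *Solyc02g086650*, to which the sources used here give no annotation, went the other way. It was at 156, 184 and 159 CPM in control 5 h, at 638, 625 and 530 CPM in infested 5 h, at 69.7, 80.0 and 90.0 CPM in control 24 h and at 29.4, 62.1 and 57.6 CPM in infested 24 h, with a difference of -2.53 (edgeR adjusted p = 0.00836).

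Genes of the response to wounding had the highest median induction of the lists at both times. The study lists 12 genes in this category because they were up-regulated at either time. Of these, 11 were called up-regulated at 5 h and 11 at 24 h, and their median log2FC was 6.45 and 8.61. All 12 had a difference above 0, with a median of 1.95, but only 1 was called. *Solyc09g084460* was at 3.96, 3.14 and 4.94 CPM in control 5 h and at 19.0, 41.2 and 25.5 CPM in infested 5 h. At 24 h it was at 0.954, 0.892 and 2.90 CPM in control leaves and at 178, 52.5 and 238 CPM in infested leaves, so that the groups were apart at both times and further apart at 24 h (difference 3.82, 95% interval 2.13 to 5.51, edgeR adjusted p = 0.0343). Of the 12, 11 belong to runs of neighbouring identifiers, and reads may be shared among neighbours. The median difference of the list was 1.42 to 2.83 with 1 library left out.

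Another gene whose induction grew was *Solyc03g098795*, which has no annotation in the sources used here. It was at 2.69, 2.94 and 1.84 CPM in control 5 h, at 54.8, 205 and 133 CPM in infested 5 h, at 3.32, 7.99 and 4.64 CPM in control 24 h and at 5457, 1113 and 4383 CPM in infested 24 h. Its log2FC of 5.71 and 9.42 differed by 3.71 (edgeR adjusted p = 0.0432), and infested 24 h replicate 2, the lowest of its group, still exceeded every 5 h library. Among the fading inductions, *Solyc11g010170*, also without annotation, held 144 ± 77.4 CPM (SD, n = 3) in infested 5 h and 12.3 ± 5.32 CPM (SD, n = 3) in infested 24 h, against 2.94 ± 0.961 CPM (SD, n = 3) and 3.32 ± 0.326 CPM (SD, n = 3) in the controls. That gene had a difference of -3.72 (edgeR adjusted p = 0.0240).

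Signalling genes that the study lists as up-regulated at 24 h gave few calls for the difference. Of the 26 protein phosphorylation genes used here, 6 were called up-regulated at 5 h and 22 at 24 h. The difference was called for 1 (3.85%, against 2.16% of all genes tested), and 3 were held. The protein kinase gene *Solyc02g080070* was at 50.9, 55.2 and 53.0 CPM in control 5 h, at 30.9, 26.5 and 33.9 CPM in infested 5 h, at 11.1, 11.3 and 8.44 CPM in control 24 h and at 46.1, 16.6 and 21.1 CPM in infested 24 h. Control leaves fell more than infested leaves (difference 2.24, edgeR adjusted p = 0.0311). MPK1 (*Solyc12g019460*), a kinase of the wound signal, was held, at log2FC of 0.73 and 0.84 with an interval of the difference from -0.34 to 0.57. Those of MPK3, MPK4 and MPK5 were not called for the difference, at 1.02, 0.60 and 0.43. None of the 5 named genes of ethylene signalling was called for the difference, with values from -1.20 to 0.84 and 2 at an unadjusted p below 0.05.

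Repression that grew held 188 genes with TMM factors and all libraries, the most of the 4 classes. It was not the largest in every setting, with 84 genes against 88 growing inductions with library totals, and 2 against 17 fading inductions without infested 5 h replicate 3. Fading inductions also outnumbered it without infested 5 h replicates 1 (31 against 24) and 2 (9 against 4), without control 5 h replicates 2 (6 against 1) and 3 (7 against 2) and without control 24 h replicates 1 (16 against 3) and 3 (22 against 4).

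The largest called difference of this class, -3.52, was that of a light harvesting gene. At 5 h, 0 of the 26 light harvesting genes used here were called, and at 24 h all 26 were down-regulated, as the study's choice of them sets. The difference was called for 11 of the 26 and was below 0 for all 26, with a median of -1.52. With 1 library left out, between 0 and 24 were called, and the median lay between -1.95 and -1.26. With library totals in place of TMM factors 13 were called, with a median of -1.36. The photosynthesis category, which shares genes with it, had 10 of 26 called and a median of -1.06, and 0 to 25 were called with 1 library left out.

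The 5 genes with the largest difference, *Solyc02g070950*, *Solyc02g070970*, *Solyc02g070980*, *Solyc02g070990* and *Solyc02g071000*, are neighbours by identifier whose reads may be shared. Their differences were -3.16, -3.30, -3.52, -3.47 and -3.40. *Solyc02g070980* was at 3244, 2933 and 3536 CPM in control 5 h, at 2001, 3320 and 2846 CPM in infested 5 h, at 220, 144 and 353 CPM in control 24 h and at 6.86, 17.5 and 28.2 CPM in infested 24 h. The groups overlapped at 5 h and were far apart at 24 h, when the controls themselves had fallen by 3.76 on the log2 scale. A sixth gene, *Solyc03g005780*, also fell in the controls, by 3.18 on the log2 scale, and had a difference of -1.93 (edgeR adjusted p = 0.0470).

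In control leaves, 23 of the 26 light harvesting genes were called as falling between the harvests, with a median change of -2.37 on the log2 scale. *Solyc08g067330* and *Solyc08g067320* were not among them. *Solyc08g067330* was at 68.9, 66.0 and 81.6 CPM in control 5 h, at 55.5, 71.9 and 68.2 CPM in infested 5 h, at 61.3, 53.1 and 66.4 CPM in control 24 h and at 8.89, 18.4 and 22.3 CPM in infested 24 h. Its control change of -0.26 was not called (edgeR adjusted p = 0.486), and the difference was -1.72 (95% interval -2.49 to -0.94, edgeR adjusted p = 0.0346). Its neighbour *Solyc08g067320* had a control change of -0.41 and a difference of -1.62 (edgeR adjusted p = 0.0380). Over the whole class of 188 genes, 31 were called for a change in the controls and 184 for a change in the infested leaves.

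The study chose genes of translation and of tRNA aminoacylation, the charging of tRNAs with amino acids, as down-regulated at 24 h, which largely sets the sign of their difference. All 26 genes of translation used here and all 19 of tRNA aminoacylation had a difference below 0, with medians of -0.57 and -0.72, and the difference was called for 5 and 4. None of them was called at 5 h. The translation gene *Solyc02g086740* was at 268, 212 and 224 CPM in control 5 h, at 205, 220 and 226 CPM in infested 5 h, at 218, 213 and 300.3 CPM in control 24 h and at 81.6, 103 and 117 CPM in infested 24 h. It stood at one level in the first 3 groups and below it in the last, with a difference of -1.16 (edgeR adjusted p = 0.0343). The tRNA aminoacylation gene *Solyc03g119280* had the same form, at 101 ± 11, 97.3 ± 7.70, 96.8 ± 16.4 and 46.9 ± 6.57 CPM (SD, n = 3) in control 5 h, infested 5 h, control 24 h and infested 24 h (difference -0.99, edgeR adjusted p = 0.0353). With 1 library left out, 0 to 11 translation genes and 0 to 10 of tRNA aminoacylation were called, and with library totals 3 and 0.

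The lists of plastid pathways were likewise chosen by the study as down-regulated at 24 h, which largely sets the sign of the difference. All 20 genes of tetrapyrrole metabolism, the route to chlorophyll, had a difference below 0 (median -0.68), and 2 were called, or 0 with library totals and 0 to 8 with 1 library left out. In control leaves, 6 of the 20 were called as falling between the harvests and 1 as rising. Among them *Solyc04g015490* was at 365, 312 and 336 CPM in control 5 h, at 295, 307 and 314 CPM in infested 5 h, at 304, 265 and 371 CPM in control 24 h and at 104, 145 and 148 CPM in infested 24 h (difference -1.10, edgeR adjusted p = 0.0343). Riboflavin biosynthesis gave 1 call among 6, *Solyc08g015660*, at 29.4 ± 1.05 CPM (SD, n = 3) in control 5 h and 26.9 ± 3.98 CPM (SD, n = 3) in infested 5 h, and at 36.4 ± 1.97 CPM (SD, n = 3) and 16.2 ± 1.24 CPM (SD, n = 3) at 24 h (difference -1.04, edgeR adjusted p = 0.0240). In amino acid, fatty acid and carotenoid biosynthesis, the medians were -0.64, -0.55 and -0.47 over 23, 17 and 5 genes, and edgeR called none. At an unadjusted p below 0.05 there were 16, 10 and 4, and DESeq2 called 5, 3 and 1.

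**Figure D4:**
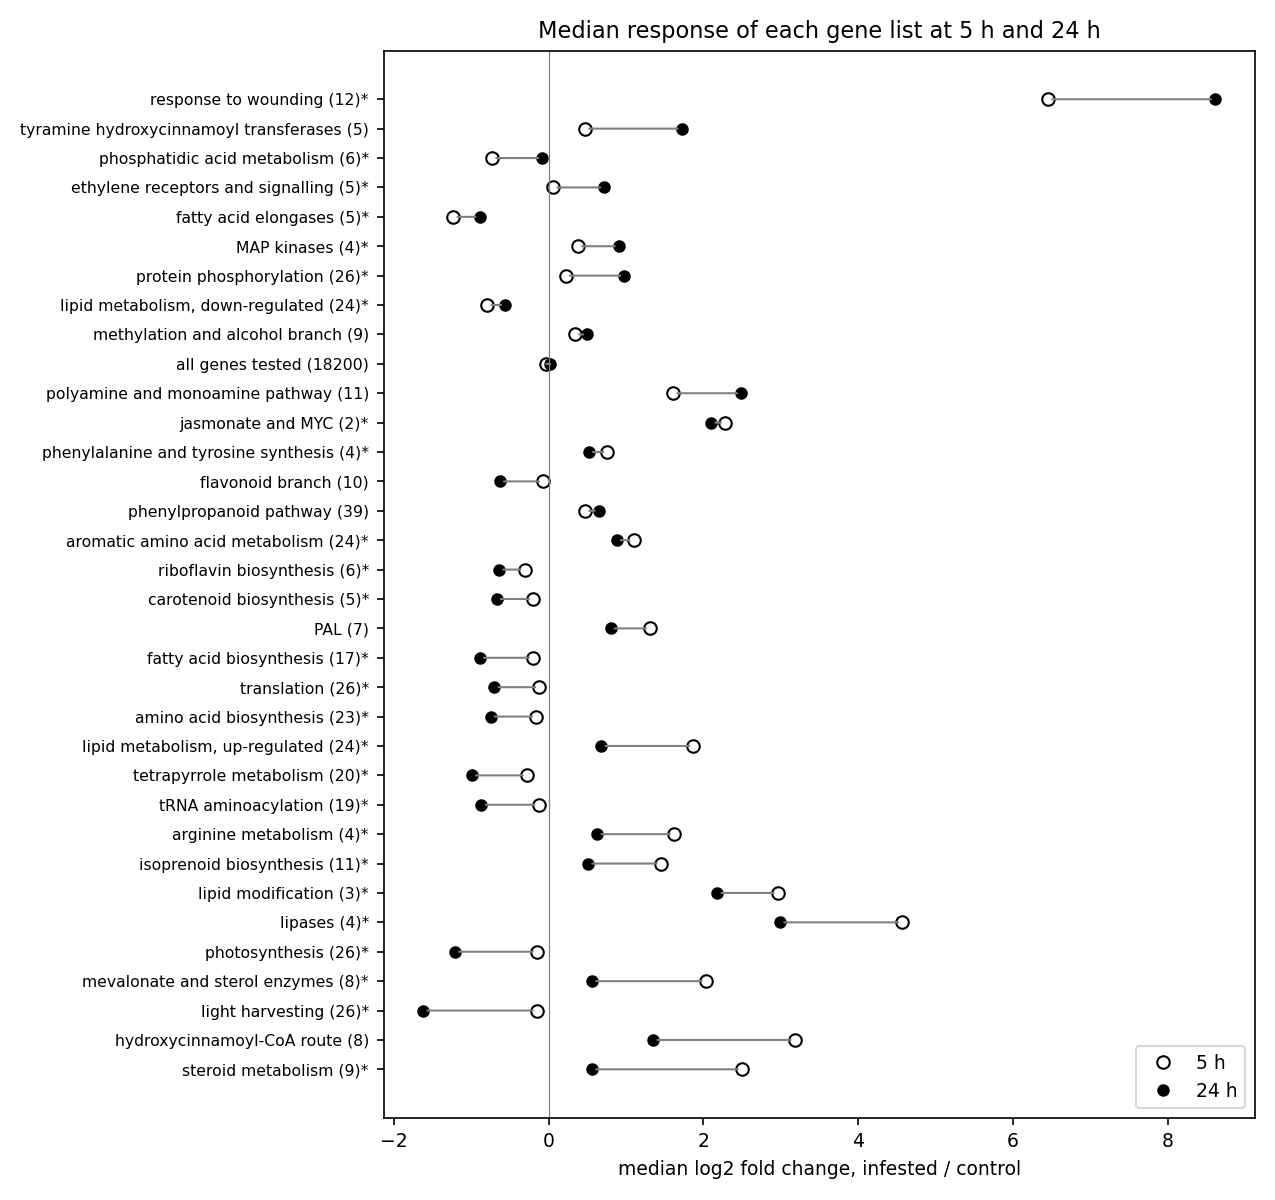
Median log2 fold change (infested against control) of each gene list at 5 h (open circles) and 24 h (filled circles), in the order of the median difference, with the number of genes tested in brackets. An asterisk marks lists the study chose by their response in these libraries; steroid metabolism goes from 2.50 to 0.56, light harvesting from -0.15 to -1.62, and all 18200 genes from -0.03 to 0.02.

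Whether a response counted as held depended on its precision, so that variable genes could not qualify whatever their course. The 263 genes held as up-regulated (1.45%) had a median log2FC of 0.79 at 5 h and 0.74 at 24 h, and the 303 held as down-regulated (1.66%) of -0.79 and -0.76. The most abundant gene among the 10 with the largest held response was *Solyc05g010420*, which has no annotation in the sources used here. It was at 567, 645 and 633 CPM in control 5 h, at 2002, 3362 and 3313 CPM in infested 5 h, at 624, 740 and 566 CPM in control 24 h and at 3455, 1909 and 3987 CPM in infested 24 h. Infested leaves stood above controls without overlap at both times, and the difference was 0.04 with an interval from -0.74 to 0.83.

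Of 2 genes of jasmonate synthesis and signalling that the study names, 1 was held. The MYC transcription factor gene *Solyc08g076930*, a regulator of jasmonate responses, was at 22.7, 25.5 and 28.3 CPM in control 5 h and at 103, 130 and 90.8 CPM in infested 5 h. By 24 h it had come to 12.3, 16.0 and 13.1 CPM in control leaves and to 46.8, 31.9 and 58.9 CPM in infested leaves. The level fell by a similar step in both treatments and the groups stayed apart, so that the log2FC of 2.08 and 1.73 differed by -0.35 (95% interval -0.99 to 0.29). Allene oxide cyclase (*Solyc02g085730*), an enzyme of jasmonate synthesis, had log2FC of 2.47 and 2.46, but its interval from -1.15 to 1.13 just missed the limit for held. Chorismate mutase (*Solyc02g088460*), which leads from the shikimate pathway to phenylalanine and tyrosine, was held at log2FC of 0.67 and 0.73. Dehydroquinate synthase (*Solyc02g083590*) and the prephenate dehydratases *Solyc06g074530* and *Solyc11g066890* of the same route had differences of -0.37, -0.10 and -1.50 that were not called (edgeR adjusted p = 0.271, 0.958 and 0.0559). Of the 24 genes of aromatic amino acid metabolism, 7 were held and 1, the PAL gene *Solyc10g086180*, faded.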

How the data were processed

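Leaflet RNA from 12 libraries (4 groups, 3 libraries each) was analysed. The authors trimmed reads with Trimmomatic, mapped them with BWA and counted them with featureCounts. The tables deposited by the authors hold raw counts for each gene, as whole numbers, although the study's methods speak of FPKM. For strand and for reads matching several genes, the labels and methods name no setting. Totals of 19655669 to 28209033 counts set the counting error, while standard errors, intervals and p-values also take in the spread between libraries.

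Genes that exceeded 1 CPM in 3 or more of the libraries were fitted in edgeR 4.0.16 (R 4.3.3) with TMM factors, 1 mean per group and all 12 libraries. Contrasts were tested by quasi-likelihood F tests with Benjamini-Hochberg adjustment of p-values over 18200 genes. The log2FC use a prior count of 0.125, and a standard error is the log2FC divided by the square root of F. The tests were tried on simulated data. Alternatives were DESeq2 1.42.0, limma 3.58.1 voom with sample quality weights, the likelihood ratio test, other scalings, filters and thresholds, a replicate block and each library left out.

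Genes were named by rule. The rule takes the 8 largest differences per class with groups apart and at least 5 CPM, the 10 largest held responses, genes called in opposite directions, and list members called or held. Members of its text and pathway lists that were not called are given by value, by range or by the count and median of their list. List medians without members at 0 counts in a whole group were added after seeing the data. Genes without annotation were mostly left out of the text. Members of gene categories named singly, the ammonium transporter and the nitrate reductase gene were chosen after their values were seen. Members and lists were chosen with earlier results of these data known. Lists and annotations come from the study's text and supplements. Some categories were held here only in part (light harvesting, photosynthesis, translation, protein phosphorylation and lipid metabolism). The reference matched none of the identifiers, so no sequences or promoter motifs were analysed.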

Additional observations from a re-analysis of the deposited data

Results flagged for a closer look

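For 43 genes named above, the response to feeding differed between 5 h and 24 h by edgeR's quasi-likelihood test of the difference at an adjusted p below 0.05, with values in brackets on the log2 scale as 24 h minus 5 h. Among genes whose induction faded, the difference was called for *Solyc11g010170* (-3.72), *Solyc06g074090* (-2.73), *Solyc10g086180* (-2.72), *Solyc01g096670* (-2.55), *Solyc02g086650* (-2.53), *Solyc08g080170* (-2.03), *Solyc12g015860* (-1.22), *Solyc09g009040* (-1.46), *Solyc04g063210* (-1.48), *Solyc06g082980* (-1.86), *Solyc02g081730* (-2.34), *Solyc10g080150* (-2.06) and *Solyc01g091320* (-1.87). In the class of fading repression, it was called for *Solyc11g006030* (5.13, with no repression called at 5 h), *Solyc02g093150* (2.72), *Solyc03g006880* (2.55), *Solyc01g102610* (2.37), *Solyc01g073660* (1.75), *Solyc05g008810* (1.62), *Solyc08g068700* (2.15), *Solyc05g008580* (1.52), *Solyc05g052760* (0.81), *Solyc03g045070* (2.03) and *Solyc11g013810* (0.79). In the class of growing induction, it was called for *Solyc09g084460* (3.82) and *Solyc03g098795* (3.71), which were induced at both times. In the same class, it was called for *Solyc03g119080* (1.49), *Solyc05g052030* (3.23), *Solyc08g079840* (1.86), *Solyc12g088670* (2.03) and *Solyc02g080070* (2.24), whose log2FC was below 0 at 5 h. A repression that grew was called for *Solyc02g070980* (-3.52), *Solyc02g070990* (-3.47), *Solyc02g071000* (-3.40), *Solyc02g070970* (-3.30), *Solyc02g070950* (-3.16), *Solyc03g005780* (-1.93), *Solyc08g067330* (-1.72), *Solyc08g067320* (-1.62), *Solyc02g086740* (-1.16), *Solyc03g119280* (-0.99), *Solyc04g015490* (-1.10) and *Solyc08g015660* (-1.04). With 3 libraries a group, single libraries were not tested for standing apart. In infested 24 h, the chi-square per degree of freedom between replicates was 159 and 117 for the pairs with replicate 2 and 60.5 for the other pair.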

How the results depend on the processing

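Genes higher and lower at 24 h numbered 309 and 534 with the likelihood ratio test, 395 and 722 with DESeq2, 216 and 453 with limma voom, 4 and 5 at an adjusted p below 0.01, and 61 and 58 at a difference above 1.5 on the log2 scale; 141 were lower with library totals. Fading induction, fading repression, growing induction and growing repression held 175, 151, 158 and 359 genes with the likelihood ratio test, 206, 198, 197 and 516 with DESeq2, and 5, 2, 2 and 0 at an adjusted p below 0.01. The last 3 of these classes held 114, 102 and 338 genes with limma voom. Growing induction and growing repression held 88 and 84 with library totals. Held genes, up- and down-regulated, numbered 84 and 85 at an adjusted p below 0.01 and 87 and 79 with a limit of 1.5-fold, and 167 were held down-regulated with library totals. The cause was not tested.

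With 1 library left out, 5 to 191 genes were higher and 7 to 640 lower at 24 h. Fading induction ranged from 6 to 141, fading repression from 3 to 84, growing induction from 2 to 107 and growing repression from 1 to 499. Held genes ranged from 130 to 397 up-regulated and from 147 to 286 down-regulated.

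The deviations of libraries with the same replicate number had correlations from -0.266 to 0.343, and those with different numbers from -0.349 to 0.326. These values gave no sign that the numbers pair the samples, but with 3 libraries a group they cannot exclude it. With the replicate block, 52 genes were higher and 164 lower, and the classes held 48, 27, 25 and 116 genes, with 212 and 274 held. No called difference of a named gene turned its direction under any setting run. These genes were chosen by that call and the settings share libraries, so the kept directions are no support. Of the held genes, the differences of *Solyc05g010420*, *Solyc12g019460* and *Solyc02g088460*, near 0 with all libraries (0.04, 0.12 and 0.06), reached -0.17, -0.04 and -0.09 with 1 library left out. Promoter motifs were not run. Leaving out members with a group at 0 counts moved the median difference of the lipases from -0.79 to -1.38 and of lipid modification from -0.78 to -1.12, and of the other lists by at most 0.06.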
